A study of Mus musculus with 8 samples.

Results

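The Fc gamma receptors, their signalling chain, the neonatal Fc receptor, the inhibitory lectin Cd22 and the phosphatase it recruits were examined as 8 genes in adipose tissue macrophages (ATMs): Fcgr1, Fcgr2b, Fcgr3, Fcgr4, Fcer1g, Fcgrt, Cd22 and Ptpn6. They were chosen by exact gene symbol and are 8 of the 18820 genes measured. Each was read by a single probe set that carries its symbol alone, and all 8 were above a log2 level of 4.32, the limit used here for dim probe sets, on all 8 arrays. ATMs were isolated from epididymal fat with magnetic beads against the surface antigen that Adgre1 encodes, from male wildtype C57Bl/6 mice, whose age is not given in the sources used here. In each of 4 experiments, RNA of mice pooled by diet was hybridised to 1 array for obese mice on a high-fat diet (HFD) and 1 array for lean mice on a low-fat diet (LFD). Both diets were based on lard. Fat made up 45% of the energy of the HFD in experiments 1 and 3, 60% in experiments 2 and 4, and 10% of that of the LFD. By the sample labels the diets lasted 16, 15, 16 and 10 weeks in experiments 1 to 4, so fat content, duration and experiment cannot be told apart. Values are log2 levels made with RMA, a method that corrects background, equalises the distributions of the arrays and summarises the probes of a gene, and a difference is always HFD minus LFD on that scale.

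Macrophages use Fc gamma receptors to sense immune complexes, that is, antigen coated with IgG. Fcgr1, Fcgr3 and Fcgr4 encode activating receptors, which have no signalling motif of their own and pair with the Fcer1g product, the common gamma chain, whose ITAM (immunoreceptor tyrosine-based activation motif) is phosphorylated by Src family kinases and then recruits the kinase Syk. Fcgr2b encodes the inhibitory receptor, which carries an ITIM (the inhibitory counterpart) and recruits the lipid phosphatase encoded by Inpp5d. Cd22 encodes a Siglec, a lectin that binds sialic acid, best known from B cells, whose ITIMs recruit the tyrosine phosphatase encoded by Ptpn6. Fcgrt encodes the heavy chain of the neonatal Fc receptor, which with the B2m product protects IgG and albumin from degradation in endosomes.

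The arrays of experiment 1 stood apart for 6 of the 8 genes. On its LFD array Fcgr1, Fcgr2b, Fcgr3, Fcgr4, Fcer1g and Ptpn6 differed from the mean of the other LFD arrays by -3.42 to -2.57, whereas Fcgrt differed by -0.51 and Cd22 by -0.73. Markers of macrophages moved in the same way. The mean of 11 pan-macrophage markers was 7.51 on the LFD array and 8.72 on the HFD array of experiment 1, against 9.99 to 10.68 on the other arrays. Adgre1, the gene of the antigen used for selection, was 6.54 and 8.58 in experiment 1 and 9.95 to 10.95 elsewhere. The mean of 17 endothelial markers, from 5.99 to 10.10 over all arrays, was highest on the 2 arrays of experiment 1 and lowest on the LFD array of experiment 3. The part of these shifts in the diet differences was not tested beyond the values given with and without experiment 1 and relative to the markers.

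Cd22 was the gene of this set with higher levels with HFD in all 4 experiments, and Fcgr2b the gene with lower levels in all 4. The other 6 genes went up in some experiments and down in others. None of the 8 passed an adjusted p of 0.05 in limma, nor did any of the 18820 genes tested (0% called), and Cd22 alone had an unadjusted p under 0.05 (0.0479). At that unadjusted threshold 3.30% of all genes were higher and 1.51% lower. With the experiment as a block Cd22 was again the only one of the 8 under 0.05, a threshold at which 7.95% of all genes were higher and 4.16% lower. Higher levels in all 4 experiments were found for 11.0% of all genes and lower levels in all 4 for 7.43%, so 1 of 8 genes in each direction is close to the background. The levels of the HFD and LFD arrays overlapped for each of the 8 genes, against 1.19% of all genes with every HFD array above every LFD array and 0.680% with every one below.

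Cd22 had log2 levels of 5.11, 5.16, 6.17 and 6.21 on the LFD arrays of experiments 1, 2, 3 and 4 and of 5.79, 6.47, 6.88 and 6.87 on the HFD arrays of the same experiments. Each HFD array thus stood above its own LFD array, while the HFD array of experiment 1 lay below the LFD arrays of experiments 3 and 4. The differences were 0.67, 1.31, 0.71 and 0.66, the largest in experiment 2. Mean levels were 6.50 ± 0.51 in ATMs from obese mice and 5.66 ± 0.61 in ATMs from lean mice (SD, n = 4 pools), a difference of 0.84 (SE 0.36, 95% interval 0.01 to 1.67), or 1.79-fold (limma adjusted p = 0.982). With the experiment as a block the difference was the same with an SE of 0.14 (interval 0.50 to 1.18), and the limma adjusted p was 0.117. An exact two-sided sign-flip permutation test of the 4 differences gave p = 0.125, the smallest value that 4 pairs allow. In such pooled cells, more cells that carry a transcript and more of it per cell cannot be told apart.

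The difference of Cd22 was 0.99 over the experiments with 60% fat and 0.69 over those with 45% fat, and the term for this contrast was 0.29 (SE 0.27) with a limma adjusted p of 0.951. Without experiment 1 the difference was 0.89 (limma adjusted p = 0.483).

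**Figure D1:**
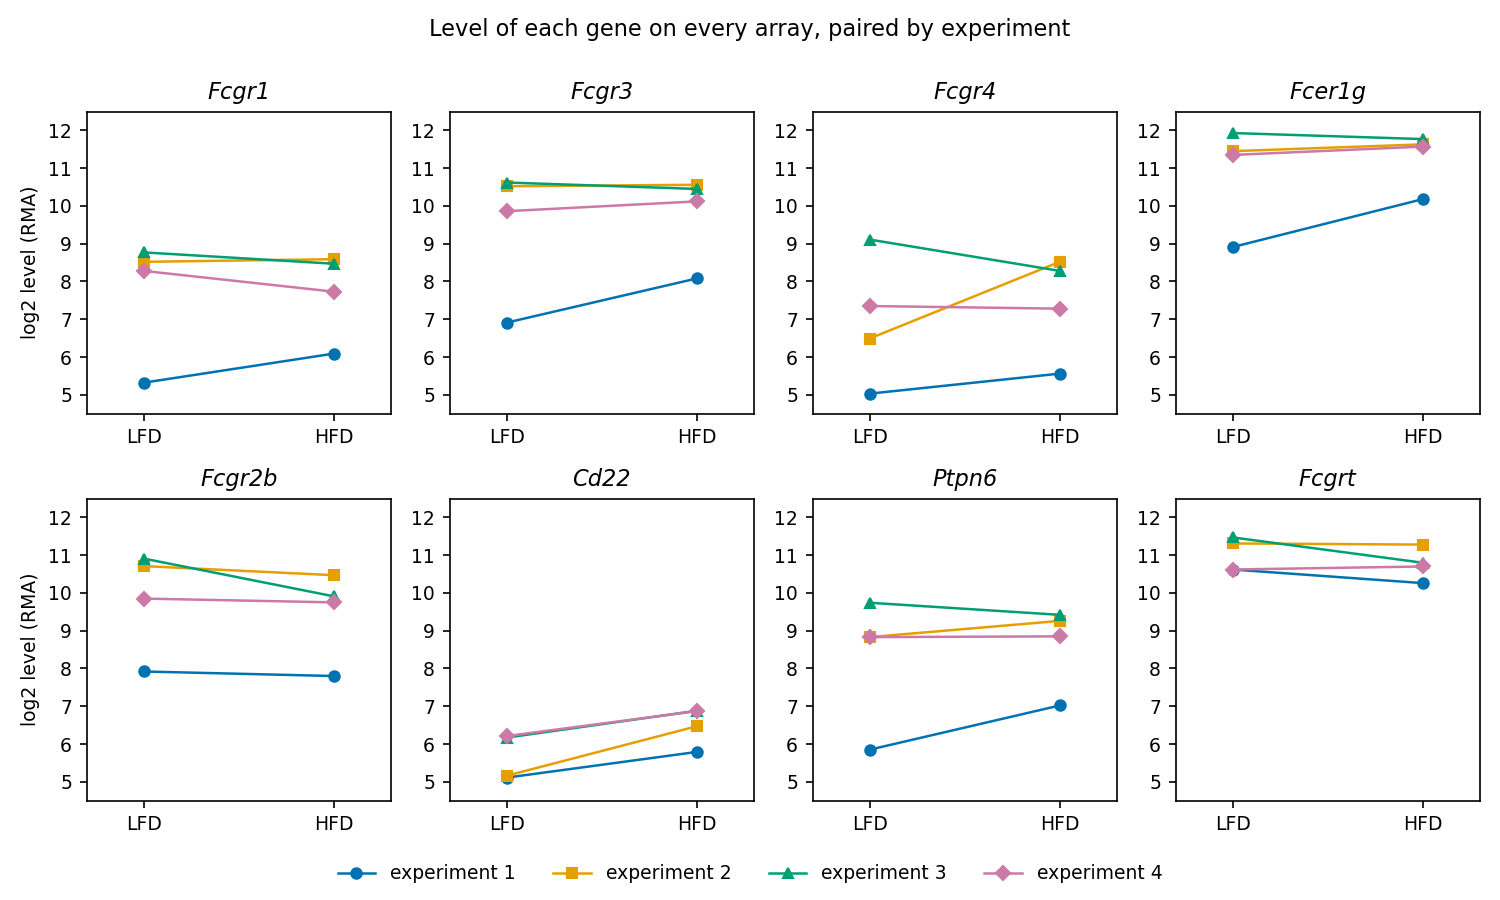
Log2 level of each of the 8 genes on every array, with a line joining the LFD and the HFD array of the same experiment; colours and symbols mark the 4 experiments. Cd22 has 4 lines that slope up and Fcgr2b 4 that slope down, whereas lines of both slopes are seen for the other 6 genes, and the arrays of experiment 1 are the lowest for 6 of the 8.

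Fcgr2b, the inhibitory receptor, had levels of 7.92, 10.71, 10.91 and 9.85 on the LFD arrays of experiments 1 to 4 and of 7.80, 10.47, 9.91 and 9.75 on the HFD arrays. The differences were -0.13, -0.24, -1.0 and -0.10, so most of the mean came from experiment 3. Means were 9.48 ± 1.16 in ATMs from obese mice and 9.85 ± 1.36 in ATMs from lean mice (SD, n = 4 pools), a difference of -0.37 (SE 0.79, interval -2.21 to 1.48; limma adjusted p = 0.999). With the block the interval narrowed to -0.80 to 0.06 (limma adjusted p = 0.489). The spread between experiments was larger than the diet difference, the LFD array of experiment 1 differing by -2.57 from the mean of the other LFD arrays. The mean difference was -0.45 over experiments 2 to 4, and 0.19 when the HFD array of experiment 1 alone was left out.

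Among the activating receptors no common direction was seen. Fcgr1, the high-affinity receptor for IgG, had levels of 5.32, 8.52, 8.77 and 8.28 on the LFD arrays and of 6.09, 8.59, 8.47 and 7.73 on the HFD arrays. The HFD array was higher in experiments 1 and 2 and lower in experiments 3 and 4, with differences of 0.77, 0.06, -0.30 and -0.55. The mean was 7.72 in both diets and the interval of the difference ran from -2.04 to 2.03, or from -0.56 to 0.55 with the block (limma adjusted p = 0.999 and 0.997), so differences up to these sizes cannot be told from 0 with 4 arrays a diet. Over experiments 2 to 4 the mean difference was -0.26.

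Fcgr3, a low-affinity activating receptor, had levels of 6.91, 10.52, 10.62 and 9.86 on the LFD arrays and of 8.08, 10.56, 10.45 and 10.12 on the HFD arrays. Outside experiment 1, where the difference was 1.16, it lay between -0.17 and 0.26. The mean difference of 0.32 (SE 0.93, limma adjusted p = 0.999) therefore became 0.04 over experiments 2 to 4. Fcgr3 and Fcgr2b encode receptors with closely similar outer domains, and the probe sequences that would show how well the array separates them were not analysed here.

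Fcgr4, an activating receptor of monocytes, macrophages and neutrophils, had the largest spread of its diet difference between experiments (SD 1.21). Its levels were 5.03, 6.49, 9.11 and 7.35 on the LFD arrays and 5.56, 8.52, 8.28 and 7.28 on the HFD arrays. The difference was 2.03 in experiment 2 and 0.53 in experiment 1, but -0.83 in experiment 3 and -0.07 in experiment 4. The mean of 0.42 (SE 0.96, limma adjusted p = 0.999) thus rested on experiment 2, without which it was -0.12, whereas it was 0.38 without experiment 1.

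Fcer1g, the signalling chain shared by the 3 activating receptors, had its largest difference in experiment 1, as Fcgr3 did. It had levels of 8.91, 11.45, 11.93 and 11.35 on the LFD arrays and of 10.18, 11.63, 11.77 and 11.57 on the HFD arrays. The difference of 1.27 in experiment 1 stood against 0.18, -0.16 and 0.22 in experiments 2, 3 and 4. Without experiment 1 the mean difference was 0.08, against 0.38 (SE 0.69, limma adjusted p = 0.999) with it.

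Ptpn6, the phosphatase recruited by Cd22, had levels of 5.85, 8.83, 9.74 and 8.83 on the LFD arrays and of 7.02, 9.26, 9.42 and 8.85 on the HFD arrays. It too differed most in experiment 1 (1.17), and the differences of 0.43, -0.32 and 0.02 in the other experiments averaged 0.04. The phosphatase thus did not share the direction of Cd22 in experiment 3, and its mean difference was 0.33 (SE 0.90, limma adjusted p = 0.999).

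Fcgrt, the IgG-recycling receptor, had the smallest spread of levels within a diet (SD 0.42 with HFD and 0.45 with LFD, n = 4 pools). Its levels were 10.62, 11.31, 11.47 and 10.62 on the LFD arrays and 10.26, 11.28, 10.80 and 10.70 on the HFD arrays, and the mean difference was -0.25 (SE 0.28, interval -0.89 to 0.40; limma adjusted p = 0.999), or -0.21 without experiment 1. The HFD array was lower in both experiments with 45% fat (-0.37 and -0.66) and within 0.07 of the LFD array in both experiments with 60% fat. The contrast of the fat contents was 0.54 (SE 0.19) with a limma adjusted p of 0.951.

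Differences between the diets were therefore also set against the macrophage markers. Their mean differed by 1.21, -0.16, -0.56 and 0.06 in experiments 1 to 4, and the median difference of the 8 genes was 0.72, 0.12, -0.31 and 0.05, against medians between -0.01 and 0.02 over all genes. Of the 8 genes, 6 were higher in experiment 1, 6 in experiment 2, 1 in experiment 3 and 5 in experiment 4. Relative to the markers, Fcer1g was higher in all 4 experiments by 0.05 to 0.40 and Fcgr2b was lower in all 4, with differences from -1.34 to -0.08. On that scale 1.16% of all genes were higher and 1.92% lower in all 4. The difference of the markers changed sign between experiments, so a gene with no diet difference is of mixed direction on that scale. These shares are therefore low by construction and do not show that the 2 genes are unusual among macrophage genes. Cd22 then stood at -0.54 in experiment 1 and at 1.48, 1.27 and 0.60 in experiments 2, 3 and 4, so its difference in experiment 1 was smaller than that of the markers. The direction of Fcer1g depends on the markers chosen, since relative to Adgre1 alone its mean difference was -0.23, while those of Cd22 and Fcgr2b were 0.23 and -0.98.

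**Figure D2:**
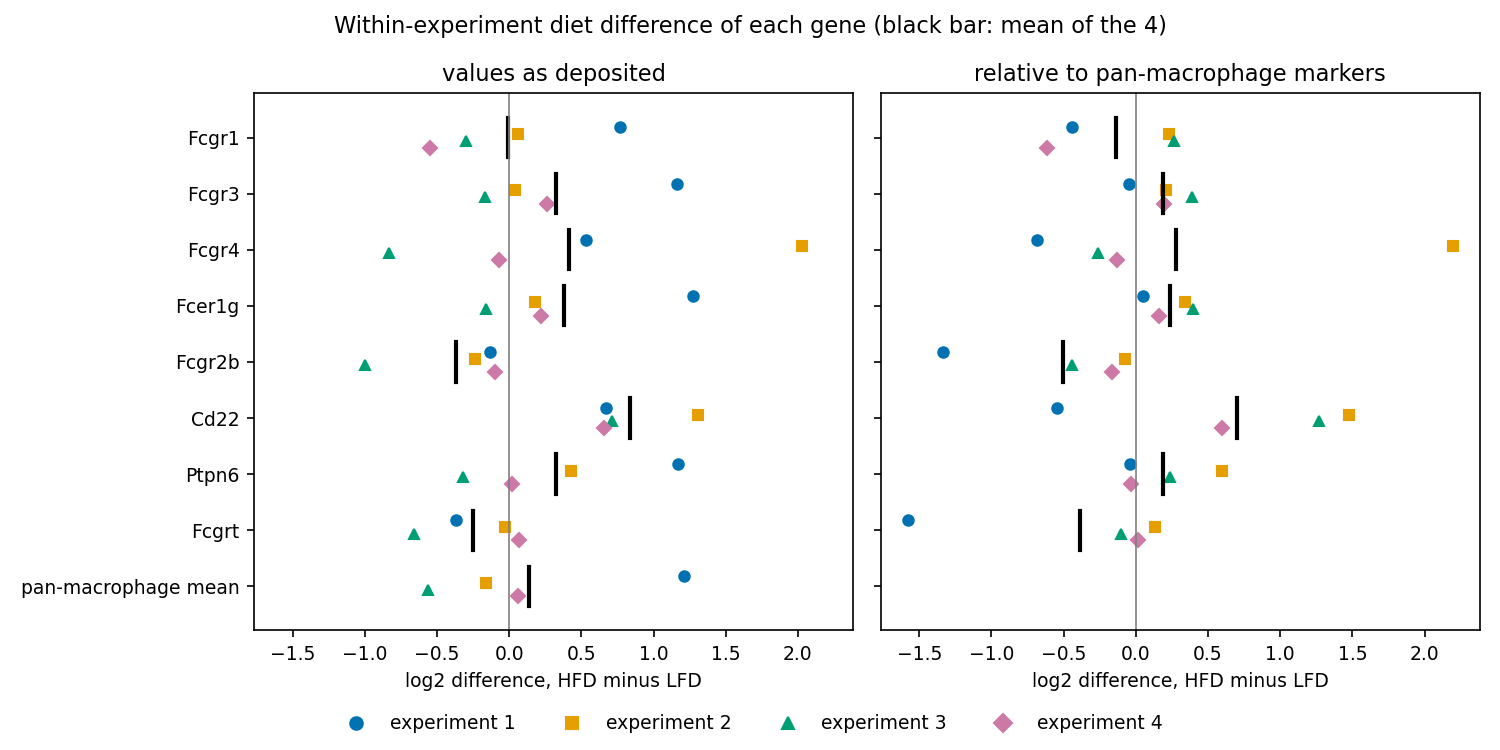
Log2 difference, HFD minus LFD, of each gene in each of the 4 experiments, as deposited (left) and after subtraction of the mean difference of 11 pan-macrophage markers (right); black bars are means of the 4 experiments. On the left Cd22 lies above 0 and Fcgr2b below 0 in all 4, and on the right Cd22 is at -0.54 in experiment 1 while Fcgr2b stays below 0 in all 4.

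Cd22 and Fcgr2b can be set side by side as inhibitory receptors. The difference of Cd22 exceeded that of Fcgr2b by 0.80, 1.56, 1.71 and 0.76 in the 4 experiments, and those of Fcgr3, Fcgr4 and Fcer1g did so in all 4 as well, by 0.03 to 2.27. That of Fcgr1 did so in 3 of 4, by 0.90, 0.31 and 0.70 in experiments 1 to 3, and stood at -0.45 in experiment 4. Since 49.5% of all genes had a difference above that of Fcgr2b in every experiment, these orders are a description and are not particular to this set.

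Because Cd22 is best known from B cells, B cell markers were read on the same arrays. The mean of 13 such markers lay between 4.16 and 4.65 and was lower on the HFD array in all 4 experiments, with differences from -0.36 to -0.10. Of the 13, 9 were under the dim limit on every array, among them Ms4a1 (means of 3.27 with HFD and 3.52 with LFD), which encodes CD20, Cd79a (3.70 and 3.83), a chain of the B cell receptor, and Pax5 (3.37 and 3.56), the B cell transcription factor. These 3 were named after their values were seen. Levels of different probe sets cannot be set against each other, and the part of B cells in the level or the difference of Cd22 was not tested.

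The 4 other markers went different ways. Cd79b, the other signalling chain of the B cell receptor, was lower in all 4 experiments (-0.88, SE 0.46; limma adjusted p = 0.982). Cd72, an inhibitory lectin of B cells that also recruits the Ptpn6 product, was higher in all 4, by 1.17, 1.71, 1.32 and 0.97, with means of 8.75 ± 1.54 and 7.46 ± 1.52 (SD, n = 4 pools), a difference of 1.29 (SE 0.96; limma adjusted p = 0.99, and with the block adjusted p = 0.0632). The levels of Cd72 in experiment 1 were 5.32 with LFD and 6.49 with HFD, against 7.44 to 9.91 on the other arrays. Like the macrophage markers it was thus low in experiment 1, and which cells carried it was not tested. Bank1, a B cell scaffold protein, was higher by 0.13 in experiment 1 and differed by -1.49, -2.07 and -0.61 in the others, from levels of 4.59, 8.14, 8.21 and 6.84 on the LFD arrays. Ebf1, a transcription factor of B cells and also of stromal cells, lay between 5.22 and 10.20 and differed by -0.41, -0.17, 2.25 and -1.12. Both were named after their values were seen. The median difference of the 5 immunoglobulin genes measured was -0.64, and Ighg1, Ighg2b and Ighg2c were not among them. Ighm (-0.29, SE 0.18) and Jchain (-0.81, SE 0.39), which encode the mu heavy chain and the joining chain, were lower in all 4 experiments. That is 40% of the list, against 7.43% of all genes. Igha (0.13), Ighg3 (-0.64) and Igkc (-1.27) were of mixed direction. Of 6 plasma cell markers, Jchain included, 33.3% were higher in all 4 experiments and 33.3% lower. Over all genes these shares were 11.0% and 7.43%.

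**Figure D3:**
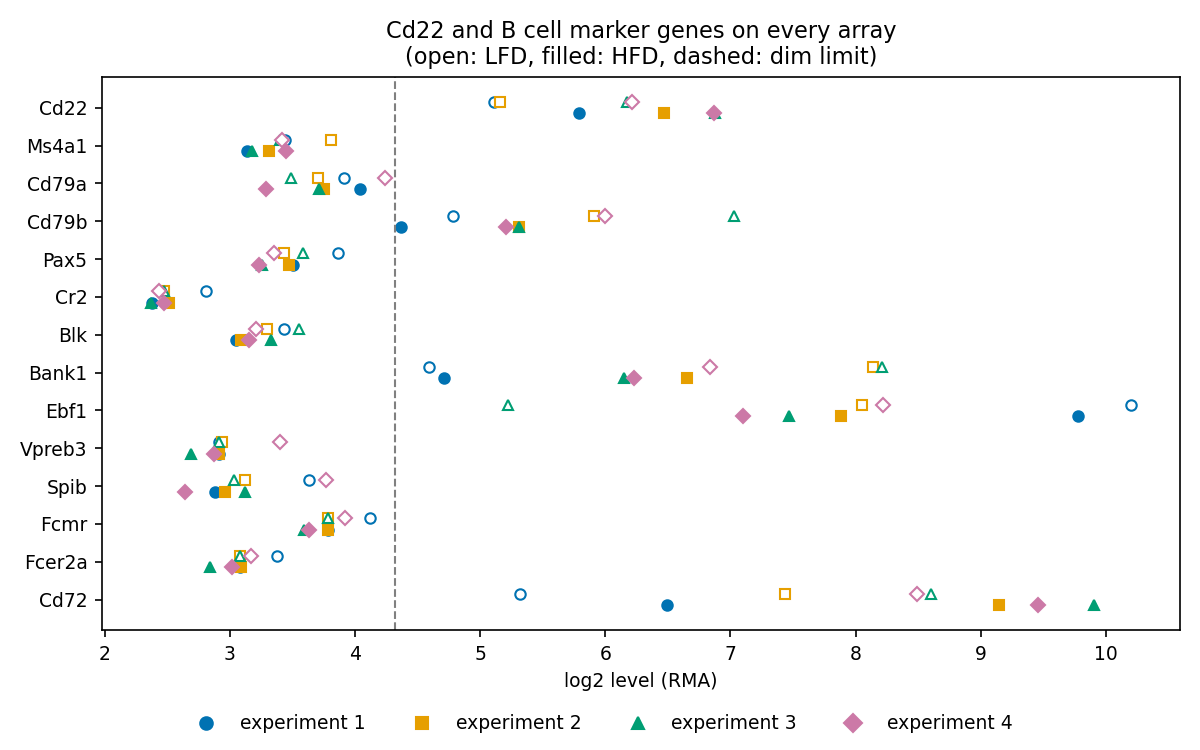
Log2 level of Cd22 and of 13 B cell markers on each of the 8 arrays, with open symbols for LFD, filled symbols for HFD and a dashed line at the dim limit of 4.32. Cd22 lies to the right of the limit on all 8 arrays and 9 of the 13 markers to its left on all 8.

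Markers of other cells that carry Fc receptors were read too. The mean of 9 neutrophil markers lay between 2.85 and 3.38, with 8 of the 9 under the limit on every array, and that of 12 NK and T cell markers between 3.38 and 3.81, with 7 of the 12 under it on every array. The mean of 9 mast cell markers was between 3.28 and 4.55, with 4 of the 9 under the limit on every array, and was highest on the HFD array of experiment 2. That of 8 dendritic cell markers lay between 4.66 and 5.17, with 4 of the 8 under the limit on every array, and Cd209a, named after its values were seen, reached 9.08. The mean of 4 platelet markers lay between 4.93 and 5.95, with 2 of the 4 under the limit on every array, and was lower on the HFD array in all 4 experiments. That of 6 eosinophil markers lay between 3.01 and 3.49, with 4 of the 6 under the limit on every array. It was higher on the HFD array in all 4 experiments, by 0.06 to 0.25. Of these markers Ccr3 was higher in all 4, by 0.33 to 1.90, and Prg2 lower in all 4, with differences from -0.40 to -0.22. Both were named after their values were seen. The part of such cells in the differences of the Fc receptor genes was not tested.

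The positions of the genes in the genome (GRCm38.p6) and their promoters add context. Fcgr2b (170960558 to 170976071), Fcgr4 (171018926 to 171029761), Fcgr3 (171051169 to 171065915) and Fcer1g (171229572 to 171234349) lie close together on chromosome 1. Fcgr1 is on chromosome 3 (96282909 to 96293969), Ptpn6 on chromosome 6 (124720707 to 124738709), and Cd22 (30865404 to 30880342) and Fcgrt (45092993 to 45103822) are on chromosome 7. The 250 bases before each RefSeq start were searched on both strands for GAGGAA, a core of sites of the macrophage factor PU.1, and for TTCNNNGAA, the element bound by STAT factors after interferon. The promoters of the 3 activating receptors, which held GAGGAA, are shown beside those of Fcgr2b and Cd22, the genes with 1 direction in all experiments, which held neither. Sequences are given in the direction of transcription, with matches in capitals, a GAGGAA on the opposite strand reading TTCCTC.
Fcgr1 chr3:96293970-96294219 (minus strand): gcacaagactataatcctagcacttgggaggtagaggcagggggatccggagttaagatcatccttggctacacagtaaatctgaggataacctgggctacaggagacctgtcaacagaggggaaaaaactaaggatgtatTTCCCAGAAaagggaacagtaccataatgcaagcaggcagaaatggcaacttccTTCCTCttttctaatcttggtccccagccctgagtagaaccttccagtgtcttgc
Fcgr3 chr1:171059395-171059644 (minus strand): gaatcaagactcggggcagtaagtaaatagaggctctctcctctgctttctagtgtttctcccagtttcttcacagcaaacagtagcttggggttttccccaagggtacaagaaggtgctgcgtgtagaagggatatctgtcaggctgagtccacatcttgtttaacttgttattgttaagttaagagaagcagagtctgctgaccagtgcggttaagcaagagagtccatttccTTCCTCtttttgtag
Fcgr4 chr1:171018676-171018925 (plus strand): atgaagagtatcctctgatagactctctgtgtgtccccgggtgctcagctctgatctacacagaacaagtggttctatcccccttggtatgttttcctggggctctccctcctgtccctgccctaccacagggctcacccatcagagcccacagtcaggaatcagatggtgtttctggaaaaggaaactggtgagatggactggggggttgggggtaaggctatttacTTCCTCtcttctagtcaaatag
Fcgr2b chr1:170976072-170976321 (minus strand): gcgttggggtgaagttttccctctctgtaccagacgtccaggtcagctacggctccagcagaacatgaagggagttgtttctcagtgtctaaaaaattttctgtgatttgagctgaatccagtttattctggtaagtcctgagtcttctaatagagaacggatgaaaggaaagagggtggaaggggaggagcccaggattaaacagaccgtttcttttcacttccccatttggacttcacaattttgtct
Cd22 chr7:30879029-30879278 (minus strand): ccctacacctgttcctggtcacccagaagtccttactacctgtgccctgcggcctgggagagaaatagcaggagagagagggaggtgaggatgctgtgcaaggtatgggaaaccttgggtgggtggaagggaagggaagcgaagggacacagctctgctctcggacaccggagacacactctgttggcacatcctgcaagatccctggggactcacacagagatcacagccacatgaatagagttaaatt
GAGGAA ended 50, 10 and 17 bases before the start in Fcgr1, Fcgr3 and Fcgr4, and Fcgr1 also held TTCNNNGAA, 101 bases before it. The matches did not overlap. The starts used for Cd22 and Fcgr3 lie inside the gene spans given above, and for Fcgr3 RefSeq has a further start. Neither motif was found in the windows of Fcer1g, Fcgrt and Ptpn6. GAGGAA was present in 23.3% of all promoter windows of this length and TTCNNNGAA in 7.02%. A match is only a match of letters, and its absence from this window shows nothing about a factor.

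Signalling genes downstream of the activating receptors were more often higher than lower. Of 26 measured, 10 were higher in all 4 experiments and 0 lower, 3 had an unadjusted limma p under 0.05 and 0 passed after adjustment, and the median difference was 0.37 against 0.005 over all genes. Without experiment 1 the median was 0.19. The share higher in all 4, 38.5%, stood beside 11.0% of all genes and 18.2% of the 11 pan-macrophage markers. Like those markers, the list was low on the LFD array of experiment 1, with a mean of 6.25 against 7.99 to 8.60 on the other LFD arrays. It was chosen with earlier results of these data known, so its share is a description. Src, the founding kinase of its family, had a difference of 0.40 (SE 0.11) that lay between 0.31 and 0.48 in every experiment. Lat2, a transmembrane adaptor of ITAM receptors, was higher by 2.29, 1.67, 0.86 and 1.02 (mean 1.46, SE 0.60). Gab2, an adaptor for phosphoinositide 3-kinase, differed by 0.37 (SE 0.16). These were the 3 past the unadjusted threshold, and their limma adjusted p was 0.982. Tyrobp, the ITAM adaptor DAP12, and Syk differed by 0.68 (SE 0.81) and 0.72 (SE 0.71), most of it in experiment 1 (2.13 and 1.97).

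Inhibitory phosphatases and adaptors showed a similar count, with 5 of 15 higher in all 4 experiments and 0 lower. The share higher was 33.3%, against 11.0% of all genes and 18.2% of the 11 pan-macrophage markers. This list too was low on the LFD array of experiment 1, with a mean of 5.93 against 7.29 to 7.89 on the other LFD arrays. Its median difference was 0.403, or 0.185 without experiment 1. Of the 15, 0 had an unadjusted limma p under 0.05, or 6 with the block, where 7.95% of all genes were higher at that threshold. Inpp5d, the phosphatase that Fcgr2b recruits, differed by 0.12 (SE 0.52) and was lower in experiment 3, as Fcgr2b and Ptpn6 were. Inppl1, its relative, was higher by 0.29 to 0.52 in each experiment (mean 0.40, SE 0.20). Ptpn22, a tyrosine phosphatase that acts on Src family kinases, and Ubash3b, a phosphatase that acts on Syk, were higher in all 4 by 0.16 to 1.28 and by 0.10 to 1.21, the smallest values being those of experiment 3.

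The other Siglecs did not go with Cd22 as a group. Of 8, 1 was higher and 3 were lower in all 4 experiments. Over all genes these shares were 11.0% and 7.43%. The 1 of 8 higher is thus close to the background, and the 3 of 8 lower is above it. The list was chosen with earlier results of these data known, so these counts are a description. Siglec15, a Siglec of macrophages and osteoclasts that signals through DAP12, was higher by 0.36, 0.88, 0.70 and 0.87 (mean 0.70, SE 0.36; limma adjusted p = 0.982, and with the block adjusted p = 0.117). Siglech, a marker of plasmacytoid dendritic cells and some macrophages, was lower in every experiment, by differences from -2.67 to -0.59, with a mean of -1.72 (SE 0.51; limma adjusted p = 0.982). Cd33, a Siglec of myeloid cells, differed by -0.77 (SE 0.86), and Siglece, named after its values were seen, by -1.39 (SE 0.69). On the HFD arrays of experiments 1 and 3 Siglech was under the dim limit (4.09 and 4.16). Siglece was under it on the arrays of experiment 1 (4.16 with LFD and 4.02 with HFD). The size of these differences is therefore uncertain.

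ITIM receptors of myeloid cells beyond the Siglecs were higher in all 4 experiments in 5 of 15 cases and lower in 1. These shares were 33.3% and 6.67%, against 11.0% and 7.43% of all genes. Of the 11 pan-macrophage markers 18.2% were higher in all 4. Like those markers, the list was low on the LFD array of experiment 1, with a mean of 6.17 against 8.11 to 8.39 on the other LFD arrays. The median difference of the list was 0.488, or 0.157 without experiment 1. Cd200r1, the receptor for the inhibitory ligand CD200, was higher by 0.62 to 1.58 (mean 0.88, SE 0.66; limma adjusted p = 0.179 with the block). Cd300a, a lipid-binding inhibitory receptor, differed by 1.02 (SE 0.72). Ceacam1, an adhesion molecule with ITIMs, differed by -0.40 (SE 0.46). The other 9 were higher in some experiments and lower in others.

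**Figure D4:**
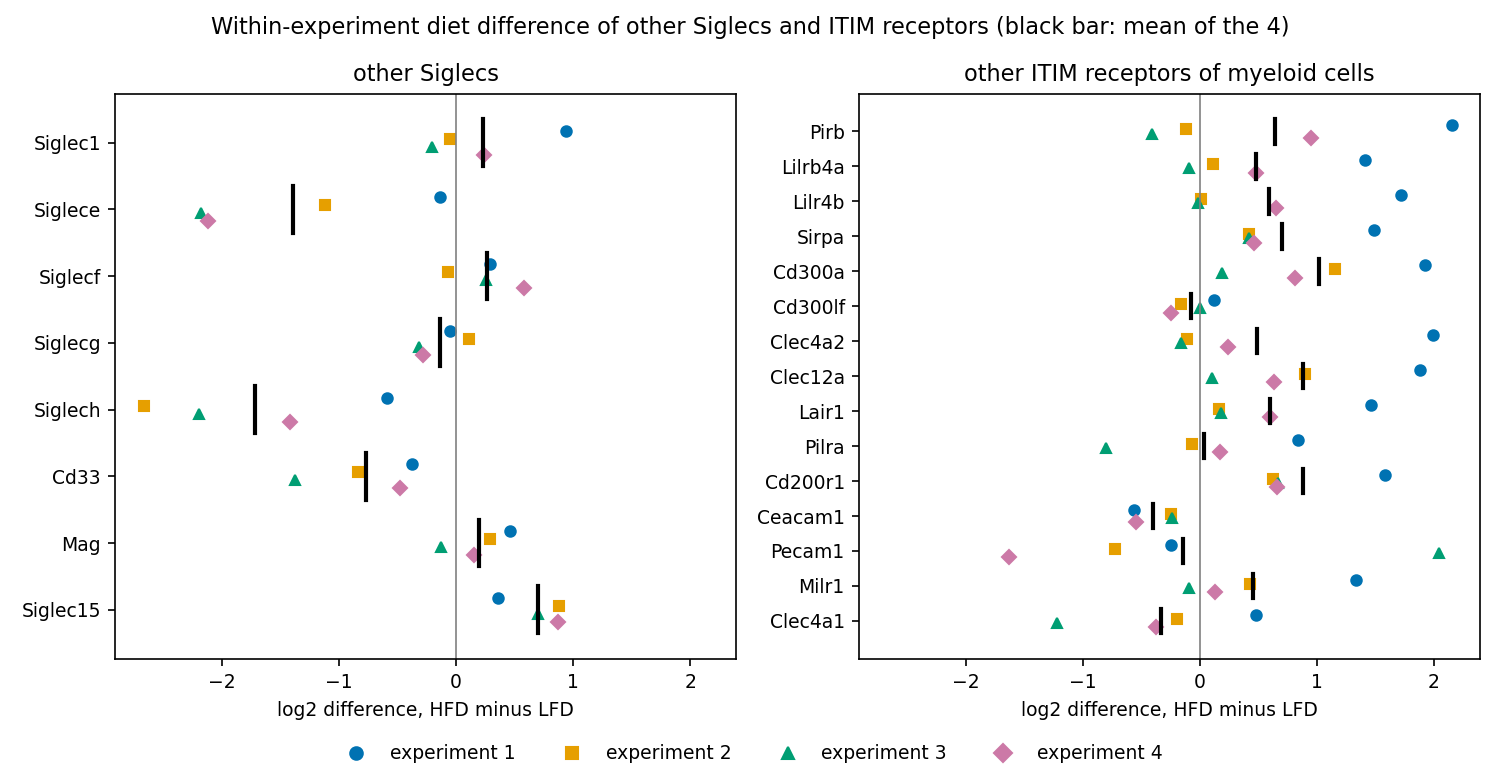
Log2 difference, HFD minus LFD, in each of the 4 experiments for 8 other Siglecs (left) and 15 other ITIM receptors (right); black bars are means of the 4. Siglech, Siglece and Cd33 lie below 0 and Siglec15 above 0 in all 4 experiments, and the points of experiment 1 lie to the right of the others for many ITIM receptors.

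Among 13 other Fc receptors and Fc receptor-like genes 11 were dim on more than 4 of the arrays. Fcrls, an Fc receptor-like scavenger gene of microglia and some tissue macrophages, was measured well above the limit and was lower by differences of -0.32, -1.06, -1.96 and -1.45 (mean -1.20, SE 0.90; limma adjusted p = 0.99, and with the block adjusted p = 0.191). It was the member of that list with the same direction in all 4 experiments, or 7.69% of the list, against 7.43% of all genes lower in all 4. Genes that make or remove the sialic acid ligands of Siglecs had a median difference of 0.009 over 12 measured. Of these 1 (8.33%, against 11.0% of all genes), Slc17a5, the lysosomal sialic acid exporter, was higher in all 4 experiments (0.25, SE 0.33). St6gal1, the enzyme that makes the linkage bound by Cd22, named for that role after its value was seen, differed by -0.30 (SE 0.30). Of 9 genes of the neonatal Fc receptor's partners and recycling route, 22.2% were higher and 11.1% lower in all 4 experiments. Over all genes these shares were 11.0% and 7.43%. Rab4a (0.59, SE 0.21, limma adjusted p = 0.982) and Vps26a (0.30, SE 0.28), which act in endosomal recycling, were higher in all 4. B2m was lower in all 4 (differences from -0.29 to -0.04, mean -0.15, SE 0.11).

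The genes whose levels over the 8 arrays ran closest to each receptor differed from member to member. Likeness was measured as the root mean square difference of gene-centred log2 levels over the 8 arrays. For Cd22 these were Eef1e1 (0.0848), Abcg1, the cholesterol exporter (0.119), and Sms, spermine synthase (0.128), against a root mean square of 0.644 for Cd22 itself. That each was higher in all 4 experiments, as Cd22 was, follows from this choice and is no separate result. For Fcgr2b they were Clec5a (0.147), Ctsc (0.166) and Ms4a6b (0.166), and for Fcgr3 the macrophage genes Siglec1 (0.132), C1qc (0.142) and Folr2 (0.143). Fcgr4 had no near neighbour, the closest being AB124611 at 0.411, Clec4e at 0.457 and A530040E14Rik at 0.467 against its own 1.35. The arrays of experiment 1 weigh on this measure for all genes that are low there.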

How the data were processed

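The authors deposited log2 values which, per the labels, were made with RMA (version not given in the sources used here). Array medians ranged from 4.25 to 4.39, and the number of arrays limits the precision. Gene names came from the platform annotation: of 35556 features, 21218 had 1 symbol, 1881 several and 12457 none. The brightest probe set by mean level stood for each of 18820 genes, of which 18790 were matched to RefSeq. Diets were compared with lmFit and eBayes of limma 3.58.1 under R 4.3.3, two-sided, with Benjamini-Hochberg adjustment over all genes and a threshold of 0.05. The labels give the number of the experiment, so it pairs the arrays and was used as a block in the alternative fit. Deviations from the diet means correlated within experiments 1 to 4, with r of 0.889, 0.357, 0.652 and 0.186 across genes, which are no independent replicates. The diet means include the arrays of experiment 1, so r in the other experiments can come in part from the centring. Arrays of different experiments were not compared in this way. Probe sets under log2 4.32 on more than 4 arrays were called dim.

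Genes named are the 8 of the set, up to 3 of each pathway list with the smallest p in the fit with the block among those with 1 direction in all experiments, Tyrobp, Syk, Inpp5d and B2m, and the 3 genes most like a member. Members and lists were chosen with earlier results of these data known. Promoters are RefSeq sequences of GRCm38.p6. Fits were tested on simulated data. Alternatives took the block as a fixed term or a random one, left out arrays or experiments, and used other centrings, no dim probe sets, the mean of probe sets, another prior, the methods' t-test and either fat content by itself. Centring on Adgre1, and 2 settings that join the block with another choice, were added after the data were seen.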

Additional observations from a re-analysis of the deposited data

Results flagged for a closer look

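In 2 of 16 groups of 4 arrays (8 genes in each diet) a single array lay far from the others, where chance gives about 1 in 20 groups. Both were arrays of experiment 1. Fcgr1 was at 5.32 on the LFD array of that experiment, against 8.28 to 8.77 on the other LFD arrays. Fcer1g was at 10.18 on its HFD array, against 11.57 to 11.77 on the other HFD arrays. The mean of the pan-macrophage markers was lowest on the same arrays (7.51 and 8.72), and its part in these values was not tested.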

How the results depend on the processing

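The difference of Cd22 kept its sign in 26 of 26 alternatives, with values from 0.23 (centred on Adgre1) to 1.08, an unadjusted p under 0.05 in 11 of them (range 0.00114 to 0.842) and an adjusted p from 0.0919 to 1.0. Runs that changed only the block, the prior, the test or which other genes were kept left the difference at 0.84. Its sign could not change in them. Cd22 has a single probe set, so the mean of probe sets repeated the main fit. The 26 alternatives are thus not separate checks of the sign. The methods' t-test gave an unadjusted p of 0.0802. None of the 8 genes passed the adjusted threshold in any alternative run. With the replicate block, which pairs the arrays by experiment, the difference of Cd22 was 0.84 with an adjusted p of 0.117 and no call of a member changed at the adjusted threshold. Leaving out arrays or experiments gave -0.81 to 0.54 for Fcgr1, -1.01 to 0.19 for Fcgr2b, -0.53 to 0.90 for Fcgr3, -0.24 to 1.12 for Fcgr4, -0.29 to 0.75 for Fcer1g, -0.42 to -0.08 for Fcgrt, 0.66 to 1.08 for Cd22 and -0.50 to 0.86 for Ptpn6. Without the LFD array of experiment 1 (replicate 1), Fcgr3, Fcgr4, Fcer1g and Ptpn6 turned to -0.53, -0.24, -0.29 and -0.50, and without its HFD array Fcgr1 and Fcgr2b turned to 0.54 and 0.19. Fcgr1 also turned with 45% fat only (0.24), Fcgr4 with 45% fat only (-0.15) and Fcgrt with 60% fat only (0.022). Centred on Adgre1, Fcgr3 was -0.29, Fcgr4 -0.19, Fcer1g -0.23 and Ptpn6 -0.28. Over all genes, 905 had an unadjusted p under 0.05, against 2280 with the replicate block, 2123 with it as a random term, 1961 without experiment 1 (replicate 1) and with the block, 39 when centred on pan-macrophage markers, 193 with 45% fat only, 2013 with 60% fat only, 1716 without dim probe sets and with the block, and 363 to 1678 when arrays or experiments were left out. At an adjusted p under 0.05 the count was 0, but 25 without dim probe sets and with the block. The median difference of the other Siglecs was 0.03 with and -0.09 without experiment 1. Causes were not tested. With 4 arrays a diet, differences of single genes inside the intervals given cannot be told from 0.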
